A study of Mus musculus with 15 samples.

Results

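Counts of 6 genes of the red cell programme were followed through 15 RNA libraries of sorted mouse spleen T cells: the alpha-globin genes Hba-a1 and Hba-a2, the beta-globin genes Hbb-bs and Hbb-bt, the carbonic anhydrase gene Car2 and the transcription factor gene Gata1. All 6 were found by symbol among the 4567 genes that appear in at least 1 of 4 deposited tables of differential expression. Each table holds only genes that passed an adjusted p of 0.05 and an absolute log2 fold change of 2 in its own comparison, so the members were chosen by values measured in these same libraries. The 4 globin genes were listed in 1 table, CD8 Flica-positive against CD8 Flica-negative (17.4% of all listed genes were in it as higher), and Car2 and Gata1 were listed there and also in CD8 Flica-positive against CD8 control (47.7% as higher). No member was listed in the tables of Flica-negative cells against controls, where 21.8% (CD8) and 18.1% (CD4) of the genes were listed as lower. Their differences in these 4 comparisons are therefore given as a description, without a test.

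The populations were CD4+ and CD8+ T cells of untransplanted C57Bl6 mice at day 0, sorted as Flica-negative controls, and CD4 Flica-negative, CD8 Flica-negative and CD8 Flica-positive cells at day 7 of acute graft-versus-host disease (aGvHD), with 3 libraries each. The disease was set up by giving C57Bl6 donor T cells and bone marrow to lethally irradiated, allogeneic Balb/C mice, young adults by the study's methods. Flica marks cells with active caspase-1 by a bound dye, and by the study's account each sort pooled more mice for the aGvHD groups than for the controls, which may hold a single mouse. Controls had no irradiation, no marrow graft and no transfer, so these cannot be told apart from aGvHD in a comparison with them.

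Mature red cells of adult mice carry a haemoglobin of alpha and beta chains, made from the globin genes in erythroid precursors of marrow and, in mice, spleen. Gata1 is the transcription factor that drives erythroid genes, and it also acts in megakaryocytes, mast cells and eosinophils. Carbonic anhydrase 2, the product of Car2, interconverts carbon dioxide and bicarbonate in red cells and is also made by other cells. In a bulk library, fewer cells of a type and less RNA per cell cannot be told apart, and donor and host transcripts were counted together. Lysis of red cells is described for splenocytes of another assay and is not mentioned for the RNA sorts, so how many red cells entered the sorts is not known.

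Levels are normalized counts, that is, counts over a size factor of the library that was recovered from the deposited mean columns. Counts on the listed genes summed to between 7310375 and 11046043 in the Flica-positive libraries and between 2143579 and 3184674 in the other 12. These sums cover selected genes and are not the depth of a library, which is unknown here. Of an 18-gene T cell list only 1 gene, Cd8a, was in a table, so T cell identity could not be read in the CD4 libraries. Cd8a had 9348 to 11492 normalized counts in the Flica-positive libraries and 12817 to 14967 in the CD8 Flica-negative. It had 18353 to 21642 in the CD8 controls and 4.41 to 117 in the CD4 libraries. Neutrophil markers, 14 of 14 listed, summed to between 203063 and 389405 normalized counts in the Flica-positive libraries, 12074 to 18573 in the CD8 Flica-negative, 2728 to 7822 in the CD4 Flica-negative and 30.4 to 118 in the controls.

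The globin genes lie in pairs. In GRCm38, Hba-a1 (ENSMUSG00000069919) spans chr11:32283511-32284465 and Hba-a2 (ENSMUSG00000069917) chr11:32296489-32297298, both on the plus strand. Hbb-bs (ENSMUSG00000052305) spans chr7:103826534-103828096 and Hbb-bt (ENSMUSG00000073940) chr7:103812524-103813996, both on the minus strand. The coding sequences of each pair differed at 1 base, 1 of 426 bases in the alpha pair and 1 of 441 in the beta pair (stop codon left out, GENCODE M21). Of the 150-base windows of the coding sequence, the length of a sequenced read end, 231 of 277 were identical between Hba-a1 and Hba-a2, and 267 of 292 between Hbb-bs and Hbb-bt. The split of counts within a pair therefore depends on how shared reads were assigned, which is not given in the sources used here, and it is reported as uncertain. The bases around each difference are shown, with the differing base in capitals (positions counted from 1 at the start codon; C381T from Hba-a1 to Hba-a2 and C417T from Hbb-bs to Hbb-bt, coding positions 361 to 401 and 397 to 437).
Hba-a1: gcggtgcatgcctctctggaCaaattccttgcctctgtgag
Hba-a2: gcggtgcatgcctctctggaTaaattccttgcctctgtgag
Hbb-bs: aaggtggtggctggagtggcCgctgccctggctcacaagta
Hbb-bt: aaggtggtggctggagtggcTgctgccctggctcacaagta

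Globin levels were led by 1 library. Hba-a1, an alpha chain gene, had 31093, 1687 and 407 normalized counts in Flica-positive replicates 1, 2 and 3, against 1042, 139 and 105 in the CD8 Flica-negative libraries. It had 585, 198 and 111 in the CD4 Flica-negative libraries, 2055, 2186 and 570 in the CD8 controls, and 2478, 2583 and 702 in the CD4 controls. Flica-positive replicate 1 was thus the highest of all 15 libraries, Flica-positive replicate 2 lay among the controls, and replicate 3 lay below every control. Hbb-bs, a beta chain gene, had 27216, 1758 and 298 in the Flica-positive libraries against 830, 130 and 36.2 in the CD8 Flica-negative. Its levels were 427, 179 and 84.1 in the CD4 Flica-negative libraries, 1786, 2012 and 432 in the CD8 controls, and 2290, 2333 and 264 in the CD4 controls. Hba-a2 and Hbb-bt showed the same order of groups, with 30276 and 21622 normalized counts in Flica-positive replicate 1.

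**Figure D1:**
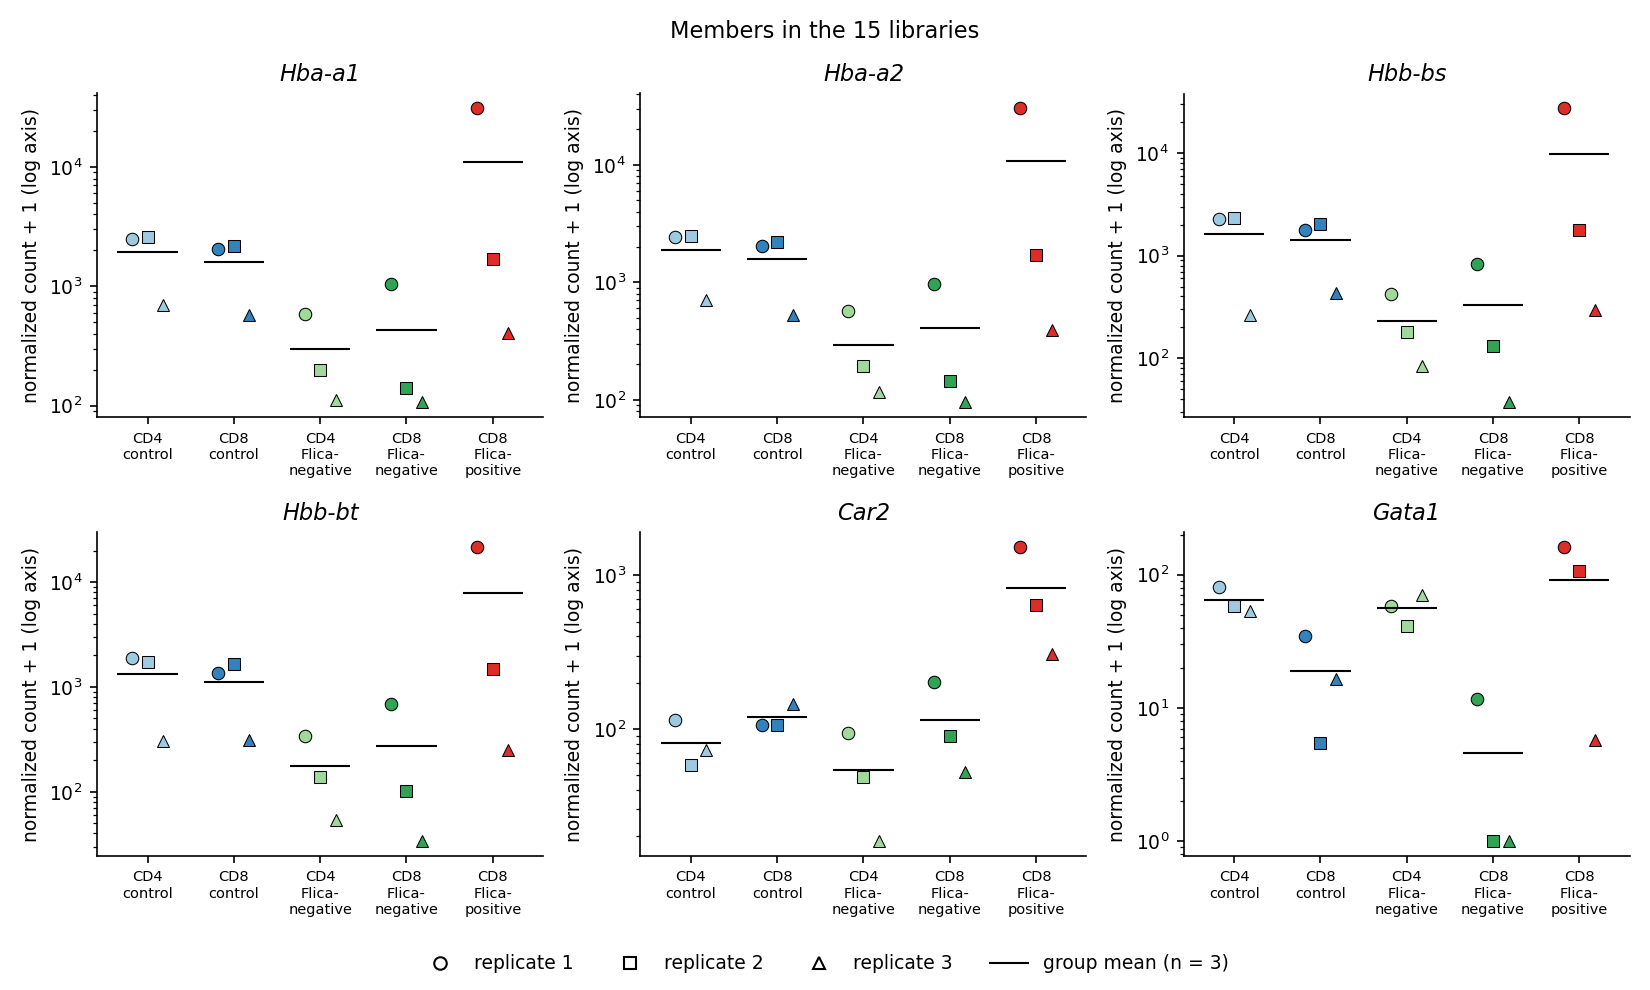
Each panel plots 1 member: the y axis is the normalized count plus 1 on a log axis, the x axis the 5 populations, each point a library with its replicate shown by shape, and each line the mean of 3 libraries. For Hba-a1, Flica-positive replicate 1 stands at 31093 while the other 2 Flica-positive libraries, at 1687 and 407, lie within or below the controls.

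Summed over the 4 globin genes, Flica-positive replicate 1 held 110207 normalized counts, 93.3% of the Flica-positive sum and 67.7% of the sum over all 15 libraries. The group means were 39391 ± 61385 (SD, n = 3) in Flica-positive cells, 6736 ± 4127 in CD4 controls, 5702 ± 3364 in CD8 controls, 1437 ± 1817 in CD8 Flica-negative and 995 ± 817 in CD4 Flica-negative cells. The SD of the Flica-positive mean was larger than the mean itself. Without replicate 1, the Flica-positive mean was 3983, below the means of both control groups. Without replicate 1 of the CD8 Flica-negative cells, which held 81.9% of its group's sum, their mean was 391, and without replicate 1 of the CD4 Flica-negative cells their mean was 533. In both control groups replicate 3 was the low library, with 1970 (CD4) and 1846 (CD8) against 7222 to 9128 in the other 4. Each pair of neighbours in this order of means overlapped in range. CD4 Flica-negative cells (362 to 1918) and CD4 controls (1970 to 9128) did not overlap, with a gap that was small beside the spread.

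The 4 globin genes were listed by the comparison of Flica-positive over CD8 Flica-negative cells. Their log2 fold changes there were 4.69 (Hba-a1, SE 1.34) to 4.88 (Hbb-bs, SE 1.42). None of the 4 separated the groups, since Flica-positive replicate 3 lay below CD8 Flica-negative replicate 1. Between libraries of the same replicate number, however, all 4 were higher in Flica-positive cells each time. Hba-a1 was at 29.8, 12.1 and 3.86 times the CD8 Flica-negative level in replicates 1, 2 and 3. Hbb-bs was at 32.8, 13.6 and 8.22 times that level. The labels do not say that a number marks a shared sort. Of all genes compared, 30.5% had every Flica-positive library above every CD8 Flica-negative library. The median log2 fold change was 4.72 over the 6 members and 0.41 over all listed genes. The latter moved to -0.83 when libraries were scaled by TMM over the listed genes, under which Hba-a1 had 3.60. Without Flica-positive replicate 1, Hba-a1 was at 1.29 (SE 0.88).

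Against CD8 controls, Hba-a1 had a log2 fold change of 2.79 (SE 1.31) in Flica-positive cells, and without Flica-positive replicate 1 it was at -0.62 (SE 0.74), with the opposite sign. With TMM scaling it was at 1.20. The median over all genes compared was 2.04, and 0.24 with TMM scaling. All 4 globin means were above the CD8 control mean with replicate 1, and 0 of 4 were without it. The globin genes were not in that table, although their log2 fold changes here, up to 2.81, exceeded that of Gata1, 2.34, the smallest of a listed member. In CD8 Flica-negative cells, Hba-a1 was at -1.91 (SE 0.79) against CD8 controls and the ranges of all 6 members overlapped there, while 32.5% of all genes compared were lower without overlap. In CD4 Flica-negative cells it was at -2.69 (SE 0.57) against CD4 controls, and Hba-a1 and Hba-a2 were lower in every Flica-negative library than in any control, as were 31.8% of all genes compared. Hbb-bs and Hbb-bt overlapped there, since replicate 3 of the CD4 controls held 264 and 302.

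CD4 and CD8 cells of the same condition were in no deposited comparison. The globin genes were listed by a comparison of Flica-positive with CD8 Flica-negative cells, not by a difference from controls. Their difference between CD4 and CD8 controls was therefore tested with edgeR's quasi-likelihood test. The deposited means cover all 15 libraries, so the controls may still have entered the authors' estimate of spread. Hba-a1 had a log2 fold change of 0.26 for CD4 over CD8 (95% interval -0.36 to 0.88, adjusted p = 0.735 by edgeR), and Hbb-bs 0.21 (-0.58 to 0.99, adjusted p = 0.847 by edgeR). Hba-a2 was at 0.24 (adjusted p = 0.745 by edgeR) and Hbb-bt at 0.24 (adjusted p = 0.800 by edgeR), so that a difference was not detected for any of the 4. The SE of Hba-a1 was 0.31 in this fit, 0.77 by DESeq2 and 1.06 in the fit of all 5 groups. That of Hbb-bs was 0.40, 1.01 and 1.15. The intervals above are narrow beside those fits and do not exclude larger differences. Without CD8 control replicate 2, Hbb-bt was at 0.65 (SE 0.22, adjusted p = 0.0311 by edgeR). Whether samples of the same number are paired is not known. With a replicate block, Hba-a1 was at 0.27 (SE 0.12, adjusted p = 0.160 by edgeR) and Hbb-bs at -0.021 (adjusted p = 0.970 by edgeR). The CD8 Flica-negative libraries took part in listing all 6 members, so CD4 against CD8 Flica-negative cells is given as a description. Hba-a1 was at -0.52 (95% interval -1.77 to 0.72) and Hbb-bs at -0.53 (-1.88 to 0.83). These signs rested on CD8 Flica-negative replicate 1: without it the values turned to 1.29 (Hba-a1), 1.30 (Hba-a2), 1.47 (Hbb-bs) and 1.39 (Hbb-bt).

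The ratio of beta to alpha chains does not depend on the size factors. Day 7 libraries may hold transcripts of both C57Bl6 donors and Balb/C hosts, all aligned to GRCm38. Whether strain or alignment moved the ratio was not tested. Counts on the 2 beta genes made up 44.3% of the globin counts in Flica-positive replicate 1 (95% exact Clopper-Pearson interval 44.0 to 44.6, counting error only), close to the median of 43.6% over the 15 libraries. The share ran from 25.7% (21 to 31) in CD8 Flica-negative replicate 3, with 311 globin counts, to 49.0% (47.6 to 50.3) in Flica-positive replicate 2, with 5626. Replicate 3 of the CD4 controls was also low, at 28.8% (26.9 to 30.7), while the other 13 libraries lay between 37.8% and 49.0%. By group, the share was 44.7 ± 4.14% in Flica-positive, 37.9 ± 10.6% in CD8 Flica-negative, 40.8 ± 3.51% in CD4 Flica-negative, 43.2 ± 2.66% in CD8 control and 39.8 ± 9.60% in CD4 control cells (SD, n = 3), and all 5 ranges overlapped. Within the pairs, Hba-a1 took 49.1% to 52.8% of the alpha counts and Hbb-bs 46.6% to 61.4% of the beta counts, with the shared reads as above.

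**Figure D2:**
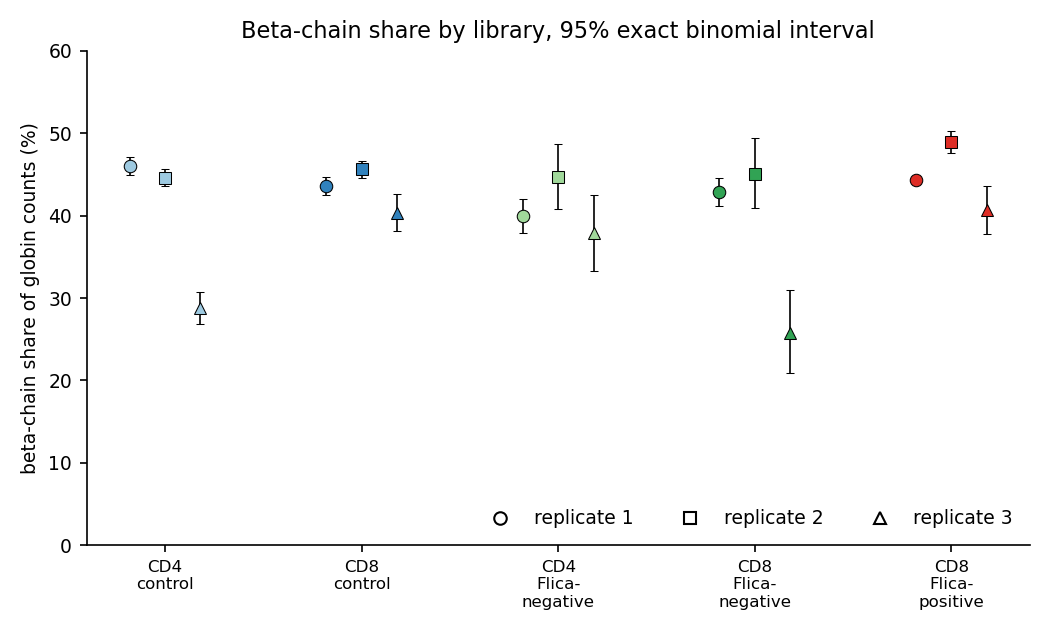
The y axis is the share of the 4-gene globin count that falls on Hbb-bs and Hbb-bt, in percent, and each point is a library with its 95% exact binomial interval. Libraries with summed globin from 268 to 110207 normalized counts lay between 37.8% and 49.0%, apart from replicate 3 of the CD4 controls (28.8%) and of the CD8 Flica-negative cells (25.7%).

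Promoter sequence is shown for the members that moved together and for Gata1, as the 250 bases before the RefSeq start (GRCm38.p6), which the RefSeq table holds for 5 of the 6 members. Capitals mark letters that erythroid promoters are known for, searched on both strands: a GATA word (spelled AGATAA, with AGATAG as a variant, or TGATAA, with TGATAG as a variant), the word CACCC, the word CCAAT and the word ATATAA. No 2 different motifs overlapped. The Hba-a1 and Hba-a2 entries share a run of 297 identical bases, offset by 3, so only Hba-a2 is printed (chr11:32296242-32296491, plus strand), followed by Hbb-bs (chr7:103827929-103828178), Hbb-bt (chr7:103813924-103814173) and Gata1 (chrX:7967911-7968160), all on the minus strand.
Hba-a2: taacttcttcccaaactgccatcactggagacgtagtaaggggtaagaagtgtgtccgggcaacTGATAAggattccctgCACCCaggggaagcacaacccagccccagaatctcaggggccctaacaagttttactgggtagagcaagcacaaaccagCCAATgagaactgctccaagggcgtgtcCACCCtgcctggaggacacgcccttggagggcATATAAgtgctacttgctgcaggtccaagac
Hbb-bs: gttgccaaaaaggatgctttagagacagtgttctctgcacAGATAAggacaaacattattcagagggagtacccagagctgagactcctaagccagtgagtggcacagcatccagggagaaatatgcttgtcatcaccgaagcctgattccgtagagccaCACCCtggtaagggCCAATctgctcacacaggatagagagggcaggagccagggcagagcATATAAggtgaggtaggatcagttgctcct
Hbb-bt: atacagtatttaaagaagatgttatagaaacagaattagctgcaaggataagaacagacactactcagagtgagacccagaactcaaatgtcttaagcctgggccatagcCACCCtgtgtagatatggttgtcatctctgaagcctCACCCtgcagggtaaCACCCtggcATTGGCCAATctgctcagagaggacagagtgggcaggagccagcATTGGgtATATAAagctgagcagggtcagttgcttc
Gata1: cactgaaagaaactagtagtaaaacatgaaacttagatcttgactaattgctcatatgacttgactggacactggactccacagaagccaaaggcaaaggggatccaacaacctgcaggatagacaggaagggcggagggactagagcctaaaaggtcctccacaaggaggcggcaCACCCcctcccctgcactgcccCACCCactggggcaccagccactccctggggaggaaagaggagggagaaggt

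All 4 globin windows held the CACCC word, the CCAAT word and the ATATAA word, and all but that of Hbb-bt held a GATA word. ATATAA ended 24 to 26 bases before the start in Hbb-bt, Hbb-bs and Hba-a2, and a CCAAT lay 71 to 91 bases before it in each. Hbb-bt held 2 more CCAAT on the opposite strand, 76 to 80 and 32 to 36 bases before the start. The Gata1 window held CACCC only. That window lies inside the annotated span of the gene, chrX:7959260-7978071, and sequence before the upstream end of that span was not searched. Of the 32841 promoter windows of the same length, 26.5% held a GATA word, 52.0% CACCC, 33.9% CCAAT, 9.10% ATATAA and 0.509% all 4. A match is a description of these letters and says nothing about binding.

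Car2 was higher in every Flica-positive library than in every other library. Of all listed genes, 44.7% had every Flica-positive library above all 6 controls. Of all genes compared, 30.5% had every Flica-positive library above every CD8 Flica-negative library. Car2 was listed through comparisons of Flica-positive cells with both CD8 groups, so this separation is a description. Car2 had 1529, 642 and 306 normalized counts in Flica-positive replicates 1, 2 and 3. The other 12 libraries lay between 17.6 and 200: 200, 88.6 and 51.8 in CD8 Flica-negative cells, 92.6, 48 and 17.6 in CD4 Flica-negative cells, 105, 106 and 145 in CD8 controls and 113, 57.1 and 72.0 in CD4 controls. Replicate 1 was again the highest Flica-positive library, at 3.23 times the mean of the other 2. That ratio was 25.0 to 29.7 for the globin genes. The log2 fold change of Car2 was 2.87 (SE 0.59) against CD8 Flica-negative cells and 2.80 (SE 0.56) against CD8 controls, where 48.2% of all genes compared also had every Flica-positive library above every control. Without Flica-positive replicate 1 these were 2.06 (SE 0.55) and 2.00 (SE 0.45), and with TMM scaling 1.72 and 1.15, the latter beside a median over all listed genes of 0.24 against 2.04 before.

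In Flica-negative cells at day 7, the mean of Car2 was 0.96 (CD8) and 0.65 (CD4) of the control mean, where that of Hba-a1 was 0.27 and 0.16. The log2 fold change of Car2 was -0.07 (SE 0.51) in CD8 cells, with -0.76 to 0.28 when 1 library was left out, the lowest without CD8 Flica-negative replicate 1. In CD4 cells it was -0.61 (SE 0.59), with -1.31 to -0.19, the lowest without CD4 Flica-negative replicate 1 and the highest without replicate 3. With TMM scaling these were -0.57 and -0.95. Whether Car2 and the globin genes differed in these comparisons was not tested. Between CD4 and CD8 cells, Car2 was at -1.10 in Flica-negative cells (95% interval -2.18 to -0.03) and at -0.56 in controls (-1.31 to 0.19), as a description, since both CD8 groups took part in listing it. Car2 (ENSMUSG00000027562) spans chr3:14886273-14900770 on the plus strand.

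Gata1 (ENSMUSG00000031162, chrX:7959260-7978071, minus strand) had more counts in CD4 than in CD8 cells among the Flica-negative and among the control libraries, while its highest levels were in 2 CD8 Flica-positive libraries. Its normalized counts were 80.4, 57.1 and 52.5 in CD4 controls and 57.3, 40.2 and 68.9 in CD4 Flica-negative cells. In CD8 controls they were 33.5, 4.48 and 15.4, and in CD8 Flica-negative cells 10.7, 0 and 0. A library at 0 allows up to 3 counts, which is 2.80 and 2.59 normalized counts in these 2 libraries. Flica-positive cells had 161, 106 and 4.78, so 2 of their libraries were above every other library and replicate 3 was among the CD8 controls.

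At day 7, Gata1 in CD4 over CD8 Flica-negative cells had a log2 fold change of 4.0 (SE 0.99), and every CD4 library was above every CD8 library, as for 17.8% of all genes compared. With 1 library left out it was at 3.39 to 8.94, the highest without CD8 Flica-negative replicate 1, whose 10 counts the fitted value depends on, so it is not a bound. Of the 6 members, Gata1 alone passed an adjusted p of 0.05 by edgeR there, as did 22.7% of 4483 listed genes. Nothing is read from this, since the low values in CD8 Flica-negative cells had also helped to list Gata1. In controls, Gata1 was at 1.82 (SE 0.67) for CD4 over CD8, with no overlap of the groups, as for 14.9% of genes, and at 1.36 to 2.66 with 1 library left out. The CD8 controls took part in listing it too, through their comparison with Flica-positive cells. In controls 0 of 6 members passed by edgeR or by DESeq2, 1 of them had an unadjusted p below 0.05, and 12.8% of 4322 genes passed by edgeR. Whether the difference between CD4 and CD8 cells changed from day 0 to day 7 was not tested.

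Against CD8 Flica-negative cells, Gata1 in Flica-positive cells had a log2 fold change of 4.68 (SE 1.5) with overlapping ranges, as replicate 3 held 4 counts and CD8 Flica-negative replicate 1 held 10. Without Flica-positive replicate 1 it was at 3.95 (SE 1.81). Against CD8 controls it was at 2.34 (SE 1.22) and, with TMM scaling, at 0.70, beside medians over all genes compared of 2.04 and 0.24. Against CD4 controls CD4 Flica-negative cells were at -0.19 (SE 0.47), while the globin genes in the same cells were at -2.68 to -2.90.

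**Figure D3:**
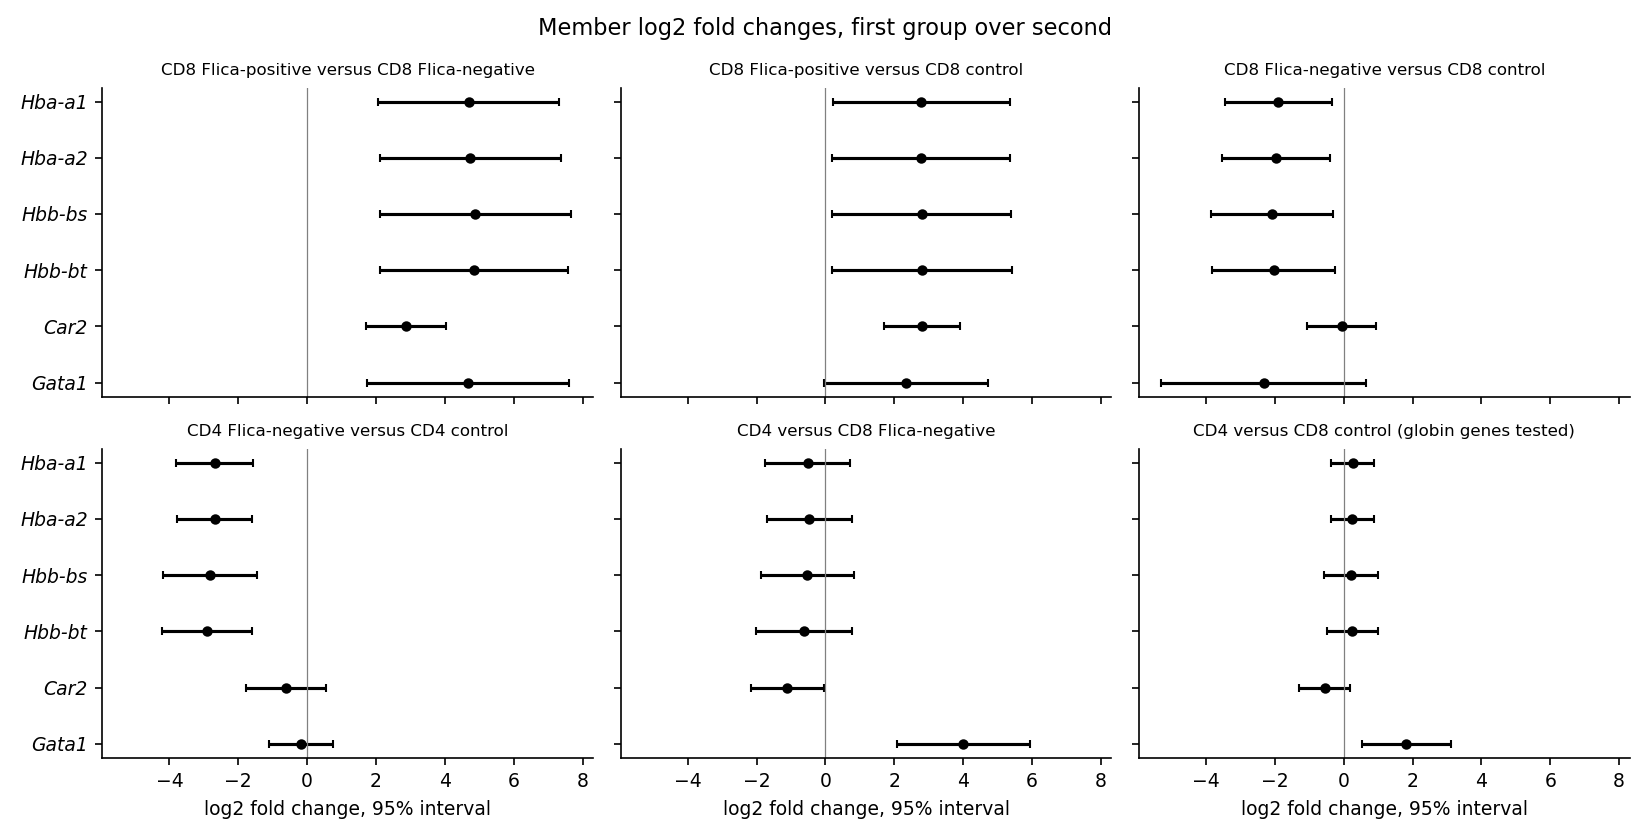
Each panel plots a comparison: the x axis is the log2 fold change of the first group over the second, and each point is a member with its 95% interval from the edgeR fit. Only the globin genes in CD4 over CD8 controls were tested, at 0.21 to 0.26, and the other intervals are a description. The widest gap between Gata1 and the globin genes is in CD4 over CD8 Flica-negative cells, where Gata1 stands at 4.0 and Hba-a1 at -0.52.

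Per kilobase of exon, Gata1 and Car2 stood far below the globin genes. In Flica-positive cells the mean was 11074 (Hbb-bt) to 16172 (Hba-a2) normalized counts per kilobase for the globin genes, 341 ± 261 for Car2 and 37.1 ± 32.4 for Gata1 (SD, n = 3). In CD4 controls the globin genes were at 1872 to 2803, Car2 at 33.3 ± 11.9 and Gata1 at 26.0 ± 6.14. Gata1 was thus within the spread of Car2 in CD4 controls and below it in CD8 controls, at 7.29 ± 6.01 against 49.0 ± 9.53.

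Of a list of 68 erythroid genes drawn up with earlier results of these data known, 25 were in a table, the 6 members and 19 others. The other 43 were in none, among them Alas2 (haem synthesis), Slc4a1 (the anion exchanger band 3) and Epor (the erythropoietin receptor), so their levels are not known here. All 19 had a higher mean in Flica-positive than in CD8 Flica-negative cells, and 18 did without Flica-positive replicate 1, where 58.5% and 56.4% of all listed genes did. In 12 of the 19 every Flica-positive library was above every CD8 Flica-negative library, with and without replicate 1, beside 30.5% of all genes compared with replicate 1 and 34.0% of all listed genes without it. Their median log2 fold change was 3.19. These genes are in the tables because they passed in at least 1 comparison, so the counts support nothing about erythroid genes not listed.

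Car1, a second red cell carbonic anhydrase, had 844, 509 and 346 normalized counts in Flica-positive cells, 60.7, 38.3 and 23.3 in CD8 Flica-negative cells and 28.2, 5.58 and 7.21 in CD4 Flica-negative cells, but 0 in 5 of 6 controls and 2.90 in the other. The controls thus held globin counts with hardly any Car1: Car1 was at most 0.0318% of the globin level there, and 0.766%, 7.68% and 25.7% in Flica-positive replicates 1, 2 and 3. Rhag, which encodes the Rh-associated glycoprotein of the red cell membrane, had 256, 94.2 and 45.4 in Flica-positive cells, 16.8 to 18.1 in CD8 Flica-negative cells and no counts in any control. Klf1, the erythroid Krüppel-like factor that activates the adult beta-globin gene, had 182, 112 and 50.2 in Flica-positive cells and 3.45 to 24.5 in CD8 Flica-negative cells. Aqp1, the red cell water channel, had 897, 185 and 129 against 9.49 to 91.6, and Ank1, the membrane-skeleton ankyrin, 464, 168 and 134 against 21.3 to 26.1. In each of these genes every Flica-positive library was above every CD8 Flica-negative library, so all were among the 12 of 19 that separated these groups. Others did not: Kel, Cldn13 and Hemgn had 0 counts in Flica-positive replicate 3 against 12, 7 and 12 in CD8 Flica-negative replicate 3. Sptb, Add2, Tal1 and Abcb10 also overlapped between these groups.

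Summed over the 19 genes, the level was 7536, 3973 and 3756 normalized counts in Flica-positive replicates 1, 2 and 3, against 785 to 1236 in CD8 Flica-negative, 477 to 837 in CD4 Flica-negative and 331 to 558 in control libraries. Every Flica-positive library was above all others on this sum, which was not so for the globin sum. Globin per unit of this sum was 3.41 to 20.3 in the controls, 14.6, 1.67 and 0.358 in Flica-positive replicates 1, 2 and 3, and 0.342 to 2.86 in the Flica-negative libraries. Flica-positive replicate 1 lay within the range of the controls on this ratio and the other 2 below it. The list is mixed, with Lmo2, Nfe2, Steap3, Mgst3 and Blvrb known from other blood cells too, and these 5 made up 25.7%, 52.0% and 64.2% of the sum in Flica-positive replicates 1, 2 and 3. Without them, a choice made after the values were seen, the sum of the other 14 was 5597, 1906 and 1345 in those libraries, 273 to 760 in Flica-negative and 112 to 171 in control libraries. Globin per unit of that sum was 19.7, 3.47 and 0.998 in Flica-positive replicates 1, 2 and 3, 0.757 to 4.65 in Flica-negative and 11.6 to 61.7 in control libraries. Abcb10, which was kept, held 44.5 to 119 normalized counts in control, 198 to 325 in Flica-negative and 291 to 627 in Flica-positive libraries. It was a large part of that sum in control and Flica-negative libraries, so the ratios there depend on it.

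**Figure D4:**
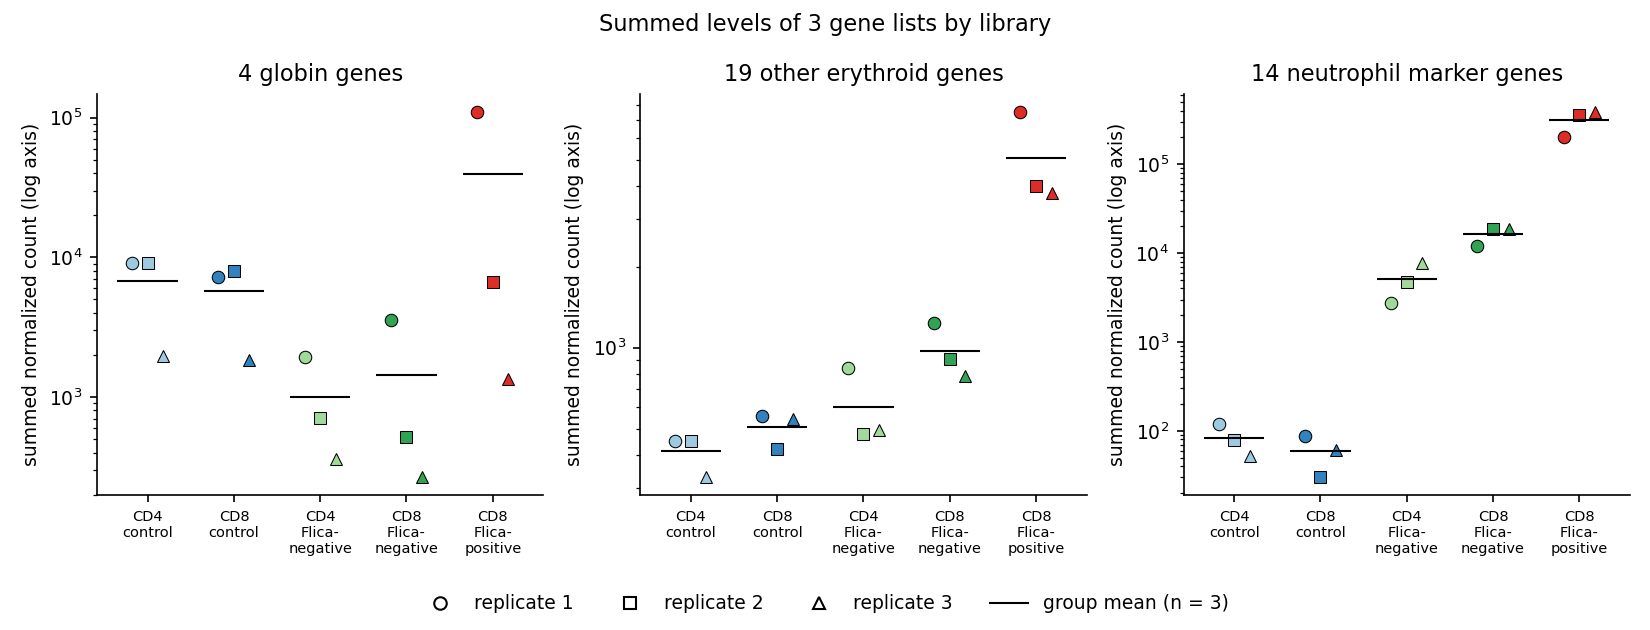
The y axis is the summed normalized count on a log axis for the 4 globin genes, the 19 other listed erythroid genes and the 14 neutrophil markers, each point a library and each line the mean of 3. Flica-positive replicate 1 is the highest library of the first 2 lists (110207 and 7536) and the lowest Flica-positive library of the third (203063).

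Flica-positive replicate 1 was the highest of the 3 Flica-positive libraries for all 6 members and 16 of the 19 other erythroid genes, where it was for 31.1% of listed genes with a value there. It was the highest of all 15 libraries for the same 6 and 16 genes, and for 8.76% of all listed genes. Its level over the mean of replicates 2 and 3 was 25.0 to 29.7 for the globin genes, 2.90 for Gata1, and 18.5, 16.3 and 15.1 for Hemgn (the nuclear protein hemogen), Sptb (beta-spectrin) and Kel (the Kell antigen). The ratio was 1.98 for Car1, 1.02 for Mgst3 and 0.563 for Nfe2, a factor subunit shared with megakaryocytes. The median was 3.07 over the 19 genes and 0.885 over 3849 listed genes, of which 16 reached the lowest globin ratio, the 4 globin genes included.

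**Figure D5:**
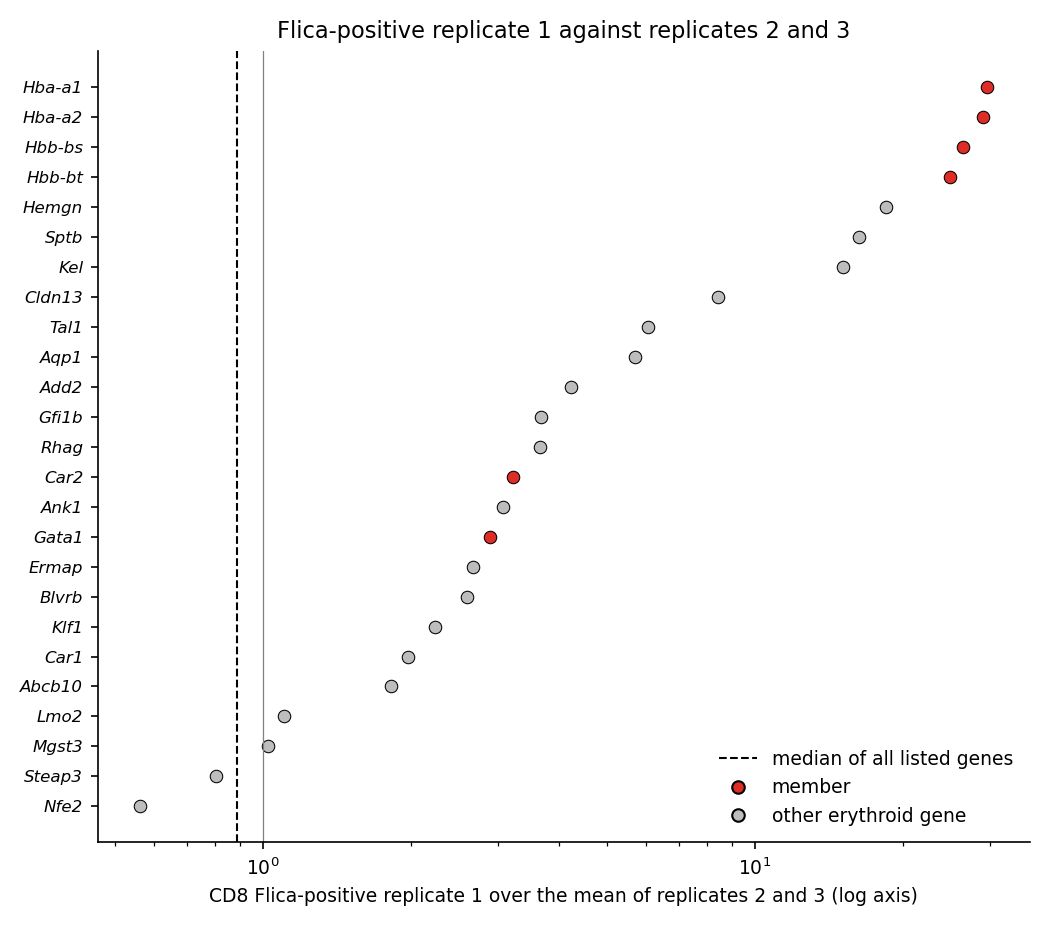
The x axis, a log axis, is the level in Flica-positive replicate 1 over the mean of replicates 2 and 3, and each row is a gene, with members in red and other erythroid genes in grey. The 4 globin genes lie at 25.0 to 29.7, beyond every other erythroid gene, while Car2 (3.23) and Gata1 (2.90) lie among them. The dashed line is the median of all listed genes, 0.885.

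Between CD4 and CD8 Flica-negative cells, the median log2 fold change of the 19 other erythroid genes was -1.34, beside -0.13 over all genes compared, and that of Gata1 was 4.0. In controls, where 17 of the 19 had counts, the median was 0.12 beside 0.08. These values are a description, since the same libraries took part in listing the genes. In the CD4 controls and CD4 Flica-negative cells, where Gata1 had 40.2 to 80.4 normalized counts, the erythroid genes ranged widely. Klf1 had 0 to 15, Tal1 0 to 19.4, Gfi1b 0 to 2.90 and Rhag 0 to 9.61. Lmo2, a partner of Gata1 and Tal1 in erythroid cells, had 98.7 to 153 in CD4 controls and 10.0 to 20.3 in CD4 Flica-negative cells, where Nfe2 reached 90.8 and Ank1 79.3. Gata1 and the summed globin level of CD4 cells also differed in course, with means of 63.3 and 6736 in controls and 55.5 and 995 at day 7.

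Markers of other blood cells were followed in the same libraries. The summed level of mast cell and basophil markers (8 of 13 listed) was 2789 to 4624 in Flica-positive, 167 to 281 in Flica-negative and 60.5 to 130 in control libraries. Megakaryocyte and platelet markers (6 of 16 listed) stood at 2727 to 3384, 1938 to 3530 and 549 to 4222, and at 328 to 605, 21.2 to 80.1 and 110 to 165 when Itgb3, which led the sum, was left out after its values were seen. Eosinophil markers (5 of 9 listed) stood at 261 to 357, 50.1 to 106 and 20.5 to 89.3. Macrophage markers (13 of 16 listed) stood at 18443 to 36935, 1052 to 2863 and 170 to 410. B cell markers (9 of 9 listed) were at 6320 to 9357 in controls and at 35.3 to 612 at day 7. Of the 3 Flica-positive libraries, replicate 1 had the lowest neutrophil, B cell, macrophage, megakaryocyte (with or without Itgb3) and mast cell sums. By gene, however, 8 of the 13 macrophage markers were highest in replicate 1, and the same number were highest there of all 15 libraries. The part of any of these cells in the member values was not tested.

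By the shape of the profile over 15 libraries, the globin genes were most like each other, with a root mean square difference of centred log2 values of 0.17 to 0.25 from their mean. The nearest of the other 3821 genes compared were Igkv14-100 (1.28), Igkv13-85 (1.36), Ighv5-17 (1.40), Ighv6-6 (1.42) and H4f16 (1.43), with mean levels of 12.3 to 31.5 normalized counts. Car2 came at rank 12 (1.57) and Gata1 at rank 297 (2.08). The genes nearest to Car2 were mt-Tq (0.68), Gm28438 (0.73), mt-Nd3 (0.73), mt-Ts1 (0.75) and Gm28437 (0.76). Gata1 had no gene closer than 1.53, with Cyp4f16, Laptm4b (1.57), Ppfia3 (1.58), Nod2 (1.60) and Kif13a (1.60) nearest. With 10 in place of 1 added before the log, 2, 0 and 2 of these 5 genes remained among the nearest to the globin mean, Car2 and Gata1, so the order is not stable.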

How the data were processed

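RNA from sorted mouse spleen T cells was sequenced as paired 150-base reads from oligo-dT selected mRNA. Per the labels, the authors aligned reads with STAR 2.7.1a to GRCm38 and used DESeq2. The counting tool, its annotation and its strand setting are not given in the sources used here. The deposited count columns hold raw counts per gene and library. The deposited mean columns hold a signal, the mean of counts divided by size factors, from which the authors' size factors were recovered (largest relative error 6.4e-15). The tables list only genes past the authors' thresholds, so library totals are unknown. Their columns of fold changes and p-values, and 4 enrichment tables, were not used.

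Counts were fitted with edgeR 4.0.16 (quasi-likelihood test, 2 groups at a time, recovered size factors, R 4.3.3), with Benjamini-Hochberg adjustment over the listed genes with counts. The SE is the absolute log2 fold change over the root of F, and 95% intervals are normal approximations from it. The fits were tested on simulated data. p-values are printed only for the globin genes in CD4 against CD8 controls, since the groups of the other comparisons were compared in listing genes. Statements of which or how many members passed a threshold, for Gata1 and Car2 or in Flica-negative cells, are a description. The p-values rest on the spread between 3 libraries a group as edgeR fitted it, and DESeq2 gave larger SE for the globin genes in controls. The labels say only that these libraries are biological replicates. An exact permutation test of 3 against 3 cannot go below 0.1. Binomial intervals cover counting error only.

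The members, the marker lists and the rules for naming genes were chosen with earlier results of these data known. The genes named were the 6 members, the other listed erythroid genes with the counts they illustrate, and the 5 nearest in profile to the globin mean, Car2 and Gata1 (log2(normalized count + 1), mean of at least 10). Alternatives were DESeq2 1.42.0, TMM, a mean of at least 10 normalized counts, 1 fit of all 5 groups, a replicate block, and leaving out each library. The counts without Flica-positive replicate 1 and the erythroid sum without 5 genes were added after seeing the data. Promoters are from RefSeq and coding sequences from GENCODE M21. CD4 Flica-positive cells were not analysed here.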

Additional observations from a re-analysis of the deposited data

How the results depend on the processing

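With CD8 Flica-negative replicate 1 left out, the CD4 against CD8 Flica-negative log2 fold changes turned to 1.29 (Hba-a1), 1.30 (Hba-a2), 1.47 (Hbb-bs) and 1.39 (Hbb-bt), where leaving out CD4 Flica-negative replicate 1 gave -1.48, -1.40, -1.34 and -1.53, the other ends of their ranges. In controls, leaving out 1 library gave -0.14 to 0.66 (Hba-a1), -0.17 to 0.64 (Hba-a2), -0.22 to 0.71 (Hbb-bs) and -0.20 to 0.71 (Hbb-bt), below 0 without CD8 control replicate 3 or CD4 control replicate 2 and, for both beta genes, without CD4 control replicate 1. The cause was not tested. Members past an adjusted p of 0.05, as a description, numbered 1 to 4 (Flica-negative) and 0 to 1 (controls) with 1 library left out. Genes called between CD4 and CD8 Flica-negative cells numbered 1017, against 706 to 1028 with 1 library left out, 1003 with TMM, 1124 by DESeq2 and 640 in the fit of all 5 groups, and in controls 554, 490 to 583, 536, 588 and 403.

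The labels give every group replicates 1 to 3 without saying that a number marks a shared sort. Correlations of same-numbered deviations over 3821 genes were 0.0282 to 0.113 between CD4 and CD8 Flica-negative cells and 0.0267 to 0.0963 in controls. Not all were above 0.1, a minimum set here that cannot decide whether a number marks a shared sort. By the study's account, stained splenocytes were sorted into the groups, so a shared sort is possible. The fits without a block were kept as the main ones and the replicate block as an alternative. Each sample of these CD4 and CD8 comparisons correlated best with its own number. Summed globin was also highest in replicate 1 of each day 7 group and lowest in replicate 3 of every group. With a replicate block, 1290 and 686 genes were called, with 2 members (Gata1 and Car2, -1.17) and 1 member (Gata1, 2.12). Under the block Hbb-bs turned to 0.16 in Flica-negative cells and -0.021 in controls. Hba-a1 in controls was at 0.27 (SE 0.12, adjusted p = 0.160 by edgeR) under the block, where the SE was 0.31 without it. Against CD8 controls, the globin genes in Flica-positive cells were at 0.80 to 0.97 under the block, where they were at 2.77 to 2.81 without it. Against CD8 Flica-negative cells, Hba-a1 was at 3.54 (SE 0.34) and Hbb-bs at 4.03 (SE 0.28) under the block. Without the block they were at 4.69 (SE 1.34) and 4.88 (SE 1.42).

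TMM over the listed genes moved the median log2 fold change from 0.69 to 0.12 (CD8) and from 0.14 to -0.25 (CD4) in Flica-negative cells against controls. Without Flica-positive replicate 1, 0 of 4 globin means exceeded the CD8 control mean. Of the 5 genes nearest in profile, 2 (globin mean), 0 (Car2) and 2 (Gata1) remained with 10 added before the log. When genes averaging under 50 normalized counts were left out, 0 (globin mean) and 2 (Gata1) remained. That filter itself removed all 5 genes nearest to the globin mean, and Laptm4b, Ppfia3 and Nod2 for Gata1. These last counts therefore say nothing about how stable the order is. Depth is unknown, so how far it limits low genes such as Gata1 could not be given.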
